A study of Mus musculus with 5 samples.

Results

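Serpine2 was followed as 1 gene of the 13911 in the authors' table of all time points, across 5 single-cell libraries of mouse CD8+ T cells. It was chosen by its measured levels, which lay on opposite sides at 24 h and 72 h when cultures with and without myeloid-derived suppressor cells (MDSCs) were compared, so these levels and the ratios between libraries are a description and carry no test. The T cells were OT-I CD8+ T cells from spleen and lymph nodes of the strain C57BL/6-Tg(TcraTcrb)1100Mjb/J, whose transgenic receptor recognises the ovalbumin peptide SIINFEKL. One library was made of cells sorted at 0 h. The other 4 held cells sorted after 24 h or 72 h of co-culture with dendritic cells (DCs) loaded with SIINFEKL, either without MDSCs (24 h DC and 72 h DC) or with them (24 h DC+MDSC and 72 h DC+MDSC). All 5 groups carried the same transgene, and the number and age of the mice and the origin of the MDSCs are not given in the sources used here. There was 1 library per group, so no difference below has a replicate check.

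Serpine2 encodes protease nexin-1, also called glia-derived nexin, a secreted member of the serpin family. Serpins are suicide inhibitors: the protease cuts a reactive loop and stays covalently trapped. Protease nexin-1 traps thrombin, urokinase, tissue plasminogen activator and trypsin-like proteases near the cell surface, where it binds heparan sulphate, and the complexes are taken up by the receptor Lrp1. It is best known from nervous tissue, vessels, platelets and fibroblasts.

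In GENCODE M21 the gene spans chr1:79794197-79861180 of GRCm38 (mm10) on the minus strand, 66984 bases with 6 transcripts, of which 3 are protein-coding and the longest has 9 exons. No other annotated gene overlaps it. The nearest protein-coding genes, Mrpl44 at chr1:79776018-79781445 and Fam124b at chr1:80198706-80218473, did not follow its pattern. Mrpl44, a mitochondrial ribosomal protein gene, stood at 45.2 and 47.8 CPM at 24 h without and with MDSCs and at 40.1 and 44.9 CPM at 72 h, and Fam124b was at or below 0.494 CPM in every library. The 250 bases before the RefSeq start of Serpine2 (chr1:79858666-79858915, GRCm38.p6, minus strand) are shown for comparison with those of the genes that varied with it, printed further on. They are given 5′ to 3′ with every GGGCGG, the core of a GC box, in capitals.
Serpine2: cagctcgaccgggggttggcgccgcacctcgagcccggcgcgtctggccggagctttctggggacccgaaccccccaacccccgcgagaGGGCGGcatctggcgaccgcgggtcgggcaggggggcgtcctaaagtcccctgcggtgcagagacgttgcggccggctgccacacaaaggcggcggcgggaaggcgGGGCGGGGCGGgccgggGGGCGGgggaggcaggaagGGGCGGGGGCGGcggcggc
The window is GC-rich, at 78.8% G and C against a median of 52.4% over all 32851 such windows of the RefSeq table. It holds 6 matches to GGGCGG, overlapping matches and both strands counted. Windows with at least 1 such match made up 32.7% of all, and those with 5 or more 1.93%. These letters are a description of the window and show no binding.

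A level, in CPM, is the sum of the adjusted whole numbers of a gene over a library, per 1000000 of the library's sum over genes. The libraries held 2952 cells at 0 h, 1562 in 24 h DC, 2247 in 24 h DC+MDSC, 1926 in 72 h DC and 4942 in 72 h DC+MDSC. Sequencing depth is unknown, since the total per cell had been made nearly equal (median 15108, coefficient of variation 4.95%). The summed level of 7 CD8 T cell markers was 1859 to 6542 CPM. In all, 110 cell barcodes occurred in 2 libraries. Without those cells the Serpine2 share of cells was 5.50%, 47.2%, 20.2%, 10.8% and 75.3% in the order above, and the levels were 4.12, 126, 19.9, 12.6 and 168 CPM.

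Serpine2 was low before stimulation, high at 24 h without MDSCs and high at 72 h with them. Its level was 4.09 CPM at 0 h, 128 CPM in 24 h DC, 19.9 CPM in 24 h DC+MDSC, 12.5 CPM in 72 h DC and 168 CPM in 72 h DC+MDSC. The order from lowest to highest was therefore 0 h, 72 h DC, 24 h DC+MDSC, 24 h DC and 72 h DC+MDSC, and the high and low stimulated libraries are crossed between the times. With 1 library each, the spread between cultures is unknown and neighbours in this order cannot be told apart by a test.

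**Figure D1:**
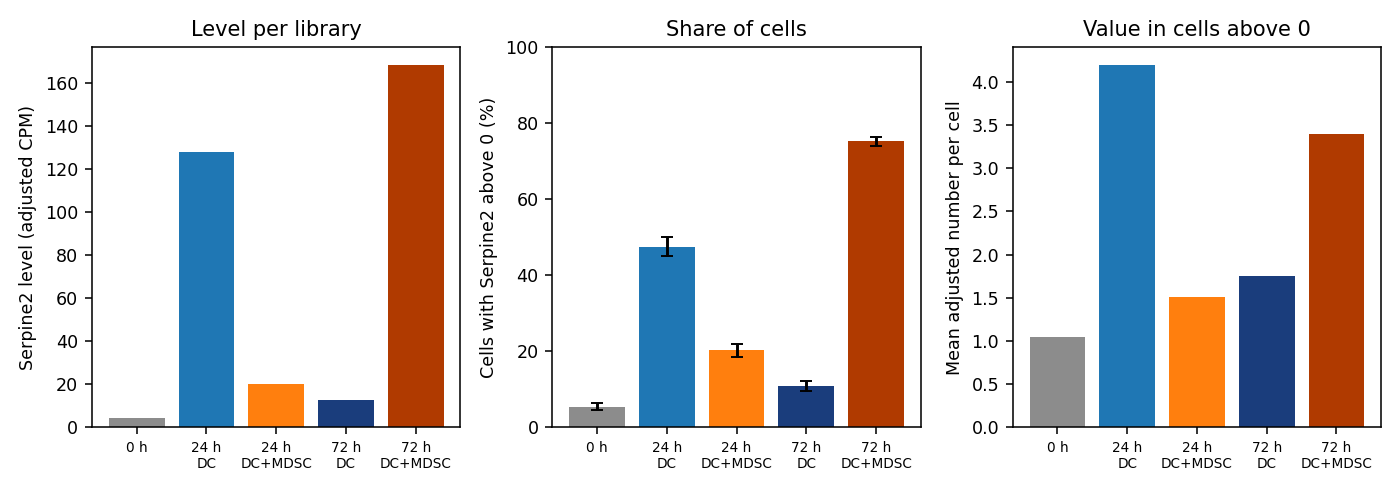
Serpine2 in the 5 libraries: level in adjusted CPM (left), percent of cells above 0 with exact 95% intervals that cover counting error only (middle), and mean adjusted number in the cells above 0 (right, no error drawn). The 24 h DC and 72 h DC+MDSC libraries stand at 128 and 168 CPM, the other 3 at 4.09 to 19.9 CPM.

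The share of cells followed the same order. Serpine2 was above 0 in 161 of 2952 cells at 0 h, or 5.45% (exact Clopper-Pearson 95% interval 4.66 to 6.34%). It was above 0 in 742 of 1562 cells of 24 h DC, or 47.5% (45.0 to 50.01%), and in 24 h DC+MDSC in 454 of 2247, or 20.2% (18.6 to 21.9%). The 72 h DC library had it in 208 of 1926 cells, or 10.8% (9.45 to 12.3%), and in 72 h DC+MDSC had it in 3723 of 4942, or 75.3% (74.1 to 76.5%). The 5 intervals do not overlap, but they cover counting error only and not differences between cultures.

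Among the cells above 0, the mean adjusted number was 1.05 (SD 0.292) at 0 h, 4.19 (SD 4.39) in 24 h DC and 1.51 (SD 1.28) in 24 h DC+MDSC. It was 1.75 (SD 1.36) in 72 h DC and 3.39 (SD 2.57) in 72 h DC+MDSC, where the SD is over cells. The cells above 0 thus held most in 24 h DC, whereas more cells were above 0 in 72 h DC+MDSC. At 24 h the MDSC library had 0.425 times the share and 0.361 times the value, both below 1. At 72 h the share was 6.98 times as large and the value 1.93 times, so the larger factor was the number of cells above 0.

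The spread over cells differed in shape between the 2 high libraries. The 10% of 24 h DC cells with most Serpine2 held 56.2% of the library's total, the variance over cells was 6.79 times the mean, and the highest cell had a value of 34. The top 10% of 72 h DC+MDSC cells held 32.9%, the variance was 2.78 times the mean, and the highest cell stood at 23. Values of 10 or more occurred in 82 cells of 24 h DC (5.25%) and in 121 cells of 72 h DC+MDSC (2.45%). In the low libraries such values were found in 3 cells of 24 h DC+MDSC, 1 cell of 72 h DC and no cell at 0 h, where 0 of 2952 allows a share of up to 0.125% by the exact interval. Values of 5 or more were held by 14.98% of cells in 24 h DC, 0.534% in 24 h DC+MDSC, 0.571% in 72 h DC and 19.2% in 72 h DC+MDSC.

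**Figure D2:**
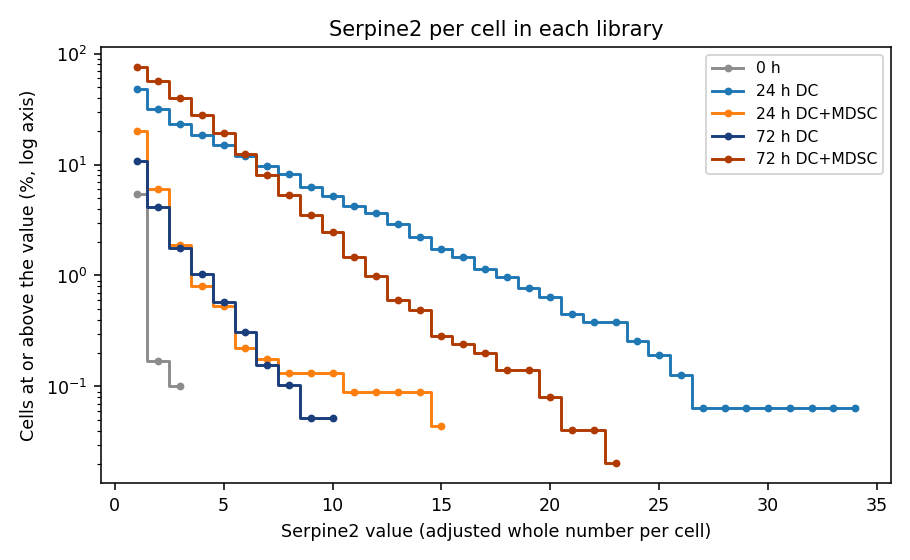
Percent of cells at or above each Serpine2 value (log axis) against the adjusted whole number per cell, 1 line per library. The 72 h DC+MDSC line starts highest, at 75.3% for a value of 1, and falls below the 24 h DC line at high values, which reach 34 in 24 h DC and 23 in 72 h DC+MDSC.

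Set side by side at 24 h, the MDSC library had a Serpine2 level 6.42-fold lower, a log2 ratio of -2.68 with over without MDSCs. Among 2717 genes that reached 50 CPM in at least 1 of the 2 libraries, 4 were at least 2-fold lower (0.147%) and 14 at least 2-fold higher (0.515%), and Serpine2 was the lowest of them, before Cdkn1a, S100a11 and Il2. At 72 h the Serpine2 level was 13.4-fold higher with MDSCs, a log2 ratio of 3.75. Of 2424 genes there, 50 were 2-fold higher or more (2.06%) and 138 2-fold lower or more (5.69%), and Serpine2 came after Cox6b2 (log2 ratio 4.08) and Dcxr (3.83). The median log2 ratio of genes at 50 CPM or more in both libraries was 0.16 at 24 h and 0.04 at 72 h. Since this contrast chose the gene, its place in these orders is given as a description.

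Along time without MDSCs, Serpine2 was 31.3-fold higher at 24 h than at 0 h (log2 ratio 4.97) and then 10.2-fold lower at 72 h than at 24 h (log2 ratio -3.35). With MDSCs it was 8.44-fold higher at 72 h than at 24 h (log2 ratio 3.08). Of 2742 genes, 871 had a level 2-fold higher or more in the first of these (31.8%). Between 24 h and 72 h, 696 of 2931 genes were at least 2-fold lower without MDSCs (23.7%), and 271 of 2974 at least 2-fold higher with them (9.11%). The comparisons share libraries, so their ratios are not independent of each other.

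The 0 h values need separate reading. Of the 161 cells above 0 at 0 h, 156 held a value of exactly 1, and all 156 also held exactly 1 for Zbtb32, a transcriptional repressor gene that was above 0 in 360 of the 0 h cells. None of the 5 cells with Serpine2 at 2 or 3 had Zbtb32 above 0. In all, 9 genes found in under 15% of 0 h cells, Zbtb32, Cish, Ccl4 and Cox6b2 among them, were above 0 in each of these 156 cells. The presence of Serpine2 and of Ccnb2, a mitotic cyclin gene, had a phi coefficient of 0.912 across the 0 h cells, whereas no gene exceeded 0.328 in the stimulated libraries. Ccl5, a chemokine gene, stood at 8278 CPM in the 156 cells against 353 CPM in cells without Serpine2, Gzmb at 705 against 242 CPM and Mki67 at 54.2 against 0.460 CPM. Ccl5 was above 0 in 77 of the 156 cells and in 21.6% of the cells without Serpine2. How the authors' adjustment set these values was not tested. When only values of 2 or more were summed, the log2 ratio of 24 h DC over 0 h was 8.55 in place of 4.97, and the share at 0 h was 0.169% (5 cells).

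The 24 h and 72 h cells were also deposited in tables of their own, adjusted separately. There Serpine2 stood at 128 and 18.3 CPM at 24 h without and with MDSCs, and at 15.7 and 168 CPM at 72 h. The shares above 0 were 53.1% and 21.1% at 24 h and 15.9% and 76.3% at 72 h. Of the cells above 0 in either table, 64.1% had another value in 24 h DC, 20.9% in 24 h DC+MDSC, 39.0% in 72 h DC and 15.8% in 72 h DC+MDSC. The largest differences were 6 in 24 h DC and 1 in the other 3 libraries. There were 100 cells of 72 h DC at 0 in the table of all time points and above 0 in that of 72 h.

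The count of genes with the pattern that chose Serpine2 was small. Of 1963 genes at 50 CPM or more in both comparisons, 2 were at least 2-fold lower at 24 h and at least 2-fold higher at 72 h with MDSCs (0.102%), Serpine2 and Cdkn1a, and 0 had the reverse pattern (0.00%). Cdkn1a encodes p21, an inhibitor of cyclin-dependent kinases and a target gene of the transcription factor p53. Its levels were 73.2 and 28.9 CPM at 24 h without and with MDSCs (log2 ratio -1.34) and 177 and 395 CPM at 72 h (log2 ratio 1.16), just inside the limit. Just outside lay Ccng1, the p53 target that encodes cyclin G1, with log2 ratios of -0.83 and 2.11. S100a11, a calcium-binding protein gene, also lay on the same sides, at -1.30 and 0.47. With a minimum of 10 CPM, 8 genes had the pattern, the others being Phlda3, Zmat3, Psrc1, Tnfsf8, Cox6b2 and Glipr1. At a minimum of 200 CPM there were 0, and with levels from the mean log value 1, Serpine2 itself.

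**Figure D3:**
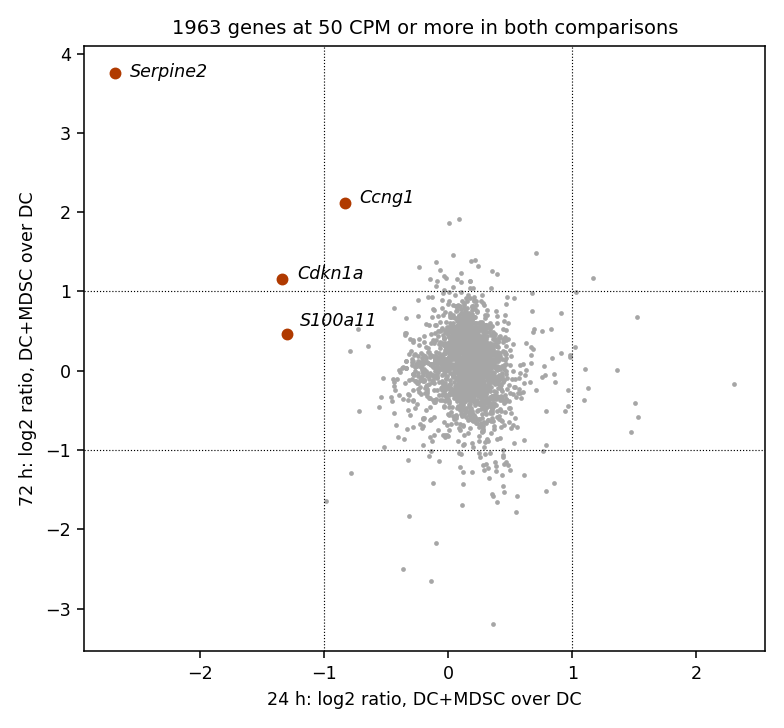
Log2 ratio with over without MDSCs at 24 h (horizontal) against 72 h (vertical) for 1963 genes at 50 CPM or more in both comparisons, 1 point per gene, dotted lines at 2-fold. Serpine2 at -2.68 and 3.75 and Cdkn1a at -1.34 and 1.16 lie in the upper left corner beyond the lines, with Ccng1 (-0.83 and 2.11) and S100a11 (-1.30 and 0.47) outside them.

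Over all 5 libraries, the genes with the level profile most like that of Serpine2 were ranked by the root mean square difference of log2(CPM + 1), centred per gene, among 5747 genes at 20 CPM or more in any library. Phlda3, a p53-induced gene whose product restrains Akt, was nearest (0.64). Its levels were 0.556, 36.7, 8.50, 12.4 and 87.6 CPM in the order 0 h, 24 h DC, 24 h DC+MDSC, 72 h DC and 72 h DC+MDSC, with the same high and low libraries as Serpine2. Next came Perp, a p53 effector at the plasma membrane (0.87), Asb2, a substrate adaptor of a ubiquitin ligase (0.90), Zmat3, a p53-induced RNA-binding protein (0.94), and Crip2, a LIM domain protein (1.02). Zmat3 shared the crossing, at 20.6, 7.86, 7.23 and 38.0 CPM in the 4 stimulated libraries. Perp did not at 24 h, with 17.1 and 16.0 CPM, but it did differ at 72 h, with 3.36 and 33.9 CPM. Phlda3 and Zmat3 also held the first and second place without the 0 h library. Of the 20 nearest genes 12 were among the 20 nearest without 0 h.

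Within each library, Pearson's r with Serpine2 was taken over cells on the deposited log values, for genes above 0 in at least 10% of the cells. The cells of a library share its culture, its depth adjustment and a fixed total, so r is a description. Over the 1562 cells of 24 h DC, 267 of 7417 genes had r of 0.1 or more (3.60%) and 1480 had r of -0.1 or less (20%). Over the 2247 cells of 24 h DC+MDSC these were 2 and 1 of 7303 genes (0.0274% and 0.0137%). At 0 h they were 680 and 107 of 4069 (16.7% and 2.63%). Over the 1926 cells of 72 h DC they were 115 and 59 of 7292 (1.58% and 0.809%), and over the 4942 cells of 72 h DC+MDSC 313 and 277 of 7088 (4.42% and 3.91%). Serpine2 values were sparse in the 2 low libraries, where r near 0 is no finding.

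There were 4 genes among the 100 highest of all 4 stimulated libraries: Cdkn1a, Phlda3, Ccng1 and Bax, the last a pore-forming gene of apoptosis and another p53 target. Cdkn1a had r of 0.490 in 24 h DC, 0.0915 in 24 h DC+MDSC, 0.171 in 72 h DC and 0.259 in 72 h DC+MDSC. Phlda3 had 0.422, 0.115, 0.243 and 0.291 in the same order, and was the highest of all genes in 24 h DC+MDSC. Ccng1 had 0.445, 0.0604, 0.244 and 0.392, and Bax 0.281, 0.0640, 0.264 and 0.279. At the other end, Rpl22l1, a paralogue of the ribosomal protein gene Rpl22, was lowest of all genes in 3 libraries (-0.103 in 24 h DC+MDSC, -0.331 in 72 h DC and -0.370 in 72 h DC+MDSC) and second lowest in 24 h DC (-0.435).

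The highest genes of 24 h DC were translation genes, led by Rpl13a (0.552), Rps19 (0.548) and Rpl9 (0.543), and the lowest was Cks1b, a cell cycle kinase subunit (-0.451). Of 96 ribosomal protein genes, 84 had r of 0.1 or more in 24 h DC, against 3.60% of all genes. It was 0 of 95 in 24 h DC+MDSC against 0.0274%, 3 of 95 in 72 h DC against 1.58%, and 37 of 95 in 72 h DC+MDSC against 4.42%. At 0 h, 83 of 95 had r of -0.1 or less, against 2.63%. The highest of 72 h DC+MDSC were Dcxr, a carbonyl and xylulose reductase gene (0.501), Cox6b2, a testis form of a cytochrome c oxidase subunit (0.486), Cd81, a tetraspanin gene (0.393), Ccng1 and Crip2 (0.367). Among the 2424 genes at 50 CPM or more, Cox6b2 and Dcxr also had the largest ratios at 72 h. Those of 72 h DC were Rps27l, a p53-induced ribosomal protein paralogue (0.267), Bax, Ccng1, Phlda3 and Cox6b2 (0.235). At 0 h Zbtb32 (0.597) and Cox6b2 (0.587) led, in the cells described above.

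Because several companions were p53 targets, the whole p53 target list of 30 genes was described beside Serpine2. Those companions, Cdkn1a, Phlda3, Ccng1, Bax and Rps27l among them, stay in the counts below. The counts were therefore partly set in advance and are a description. p53 is activated by DNA damage and other stress, and its targets arrest the cell cycle, repair DNA or start apoptosis. Of 21 measured members, 13 in 24 h DC had r of 0.1 or more with Serpine2, against 3.60% of all genes, and 0 had -0.1 or less. With MDSCs at 24 h it was 1 of 17, Phlda3, against 0.0274%, in 72 h DC 6 of 15 against 1.58%, and in 72 h DC+MDSC 20 of 23 against 4.42%. The median r of the members was 0.134, 0.0286, 0.0607 and 0.186 in the 4 libraries, beside -0.0454, 0.000291, 0.0181 and 0.00163 over all genes. At 0 h it was 3 of 11 against 16.7%. Members differed: Zmat3 had r of 0.382 in 24 h DC and Perp 0.184, whereas Mdm2, which encodes the ubiquitin ligase of p53, had 0.126, Fbxw7 -0.0744 and Tigar -0.0724. With MDSCs at 72 h, Perp had 0.313, Mdm2 0.222, Fas 0.198 and Tigar -0.0122.

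**Figure D4:**
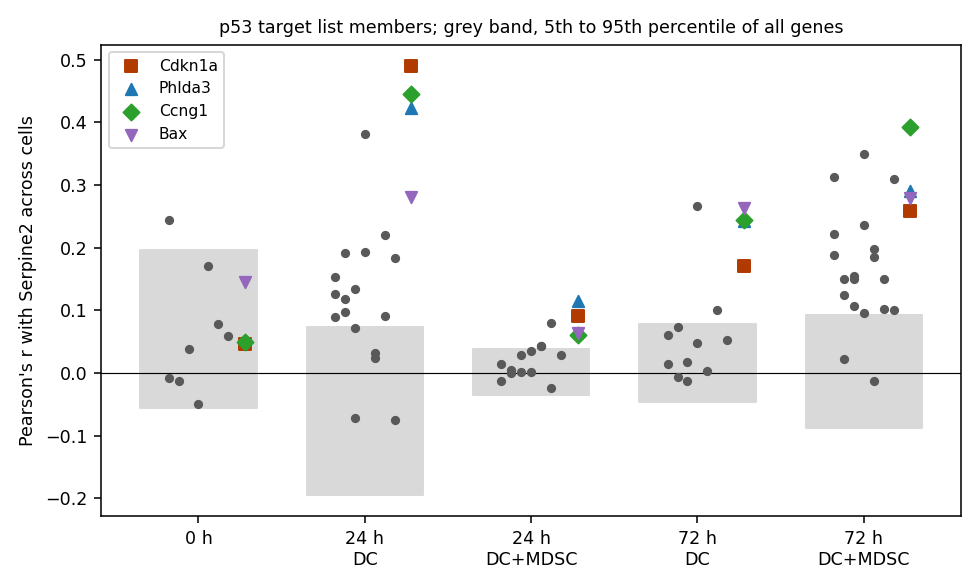
Pearson's r with Serpine2 across the cells of each library for the measured members of the p53 target list, 1 point per gene, with 4 genes marked by shape. The grey band spans the 5th to 95th percentile of all genes. Above it lie 16 of 21 members in 24 h DC and 21 of 23 in 72 h DC+MDSC, the genes that prompted the list included.

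The r values were also taken at a given number of genes and ribosomal protein content. Given the number of genes found and the share of ribosomal protein genes, an adjustment added after the values were seen, r in 24 h DC was 0.377 for Cdkn1a, 0.319 for Phlda3, 0.309 for Ccng1 and 0.281 for Bax. For 72 h DC+MDSC it was 0.227, 0.250, 0.369 and 0.280. Among only the cells with Serpine2 above 0, r was 0.503 for Cdkn1a, 0.376 for Phlda3 and 0.491 for Ccng1 in 24 h DC, and 0.129, 0.182 and 0.295 in 72 h DC+MDSC.

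As levels, most members of the p53 list lay on the side of Serpine2 at 72 h, but only some at 24 h. At 24 h, 5 of 17 members at 10 CPM or more were at least 1.5-fold lower with MDSCs, against 1.14% of 6726 genes, and 0 were at least 1.5-fold higher, against 2.14%. The 5 were Cdkn1a, Phlda3, Zmat3, Ccng1 and Bbc3, which encodes the pro-apoptotic protein PUMA. Of these, Cdkn1a, Phlda3, Zmat3 and Ccng1 were already named above for having this pattern or lying just outside it. At 72 h, 19 of 21 were at least 1.5-fold higher, against 8.30% of 6697 genes, and 2 were lower, Btg2 and Ddit4, against 14.8%. The median log2 ratio of the members was -0.04 at 24 h and 1.22 at 72 h, beside 0.09 and -0.07 over all genes at that level. More members thus lay on the side of Serpine2 at 72 h than at 24 h. Bax had log2 ratios of -0.09 and 1.12, Aen, a p53-induced nuclease gene, of 0.08 and 1.91, and Mdm2 of 0.23 and 1.02.

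The promoter windows of the companions were read beside that of Serpine2. In the same 250 bases, the Serpine2 window printed above held no match to the 10-base p53 consensus element, of which a full p53 site holds a pair. Over all windows 7.13% held at least 1 match and 0.0639% held a pair 0 to 13 bases apart. Of the 24 list members with a window, 8 held a match in any of their windows and 1, Cdkn1a, a pair. Some members have several windows, so these counts per gene are not on the scale of the shares per window. The other Cdkn1a window held no match. The consensus reads the same on both strands. Rps27l, also named above, held 2 matches in a window, not as a pair, and these are not printed. The stretches around the matches of Cdkn1a, Ccng1 and Bax are shown with the matching bases in capitals, from GRCm38.p6. They lie at chr17:29090896-29090947 on the plus strand (Cdkn1a), and at chr11:40755452-40755481 (Ccng1) and chr7:45467080-45467109 (Bax), both on the minus strand.
Cdkn1a: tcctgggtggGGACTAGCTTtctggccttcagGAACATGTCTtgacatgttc
Ccng1: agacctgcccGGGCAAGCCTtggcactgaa
Bax: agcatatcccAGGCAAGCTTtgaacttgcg
Phlda3 had no match in its window. The search covers these letters alone and says nothing of sites elsewhere in the genes. Only exact matches were sought. An element off the consensus at 1 base stays in lower case, as directly after the second Cdkn1a match, so the capitals need not mark a site that is bound.

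Grouping the cells of a library by their Serpine2 value (0, 1, 2 to 4, 5 or more) gave the companions in levels. Cdkn1a in 24 h DC stood at 24.2, 34.2, 105 and 250 CPM over these 4 groups of 820, 250, 258 and 234 cells. Phlda3 stood at 15.8, 25.8, 55.9 and 100 CPM in them, and Ccng1 at 45.8, 49.1, 91.4 and 184 CPM. The last group of 24 h DC+MDSC had 12 cells, and over the first 3 groups Cdkn1a stood at 25.7, 37.4 and 44.4 CPM. Cells without Serpine2 had 24.2 CPM of Cdkn1a at 24 h without MDSCs and 25.7 CPM with them, whereas Phlda3 stood at 15.8 and 7.24 CPM in these cells. With MDSCs at 72 h, Cdkn1a stood at 288, 386, 428 and 475 CPM over 1219, 925, 1848 and 950 cells. Without them it stood at 166, 235, 307 and 391 CPM over 1718, 129, 68 and 11 cells. At 72 h, cells without Serpine2 therefore still had more Cdkn1a with MDSCs than without, 288 against 166 CPM, and Phlda3 likewise, 49.0 against 9.98 CPM.

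**Figure D5:**
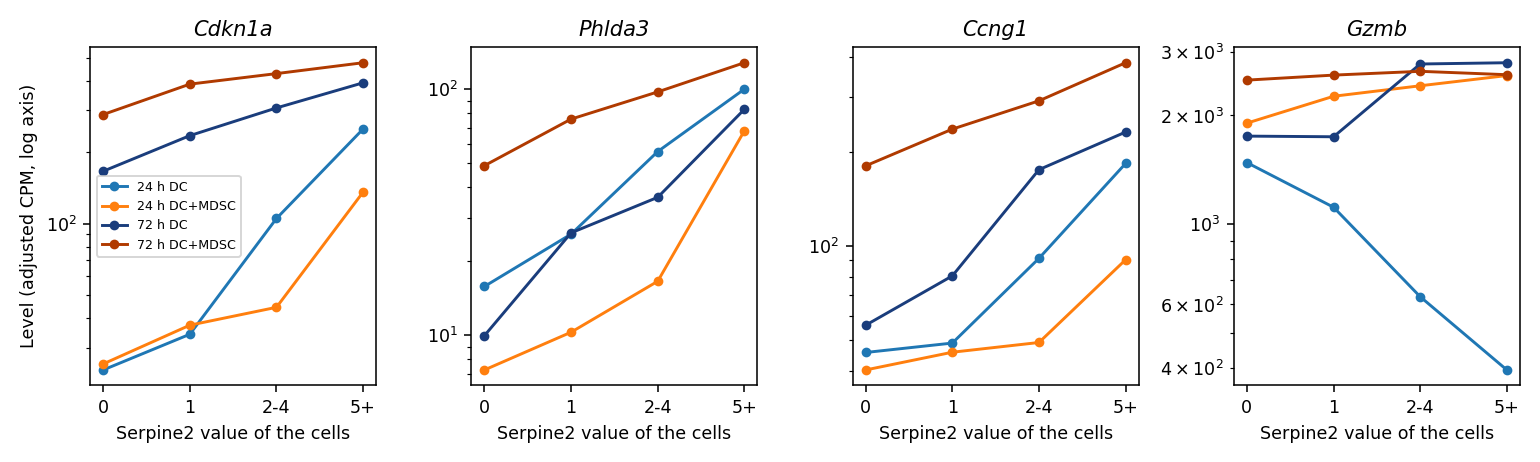
Level of 4 genes (adjusted CPM, log axes with a different range in each panel) in cells grouped by their Serpine2 value, 1 line per stimulated library. Cdkn1a, Phlda3 and Ccng1 are higher in cells with more Serpine2 in every library, and Gzmb is lower in 24 h DC only, from 1481 to 395 CPM; the highest group of 24 h DC+MDSC and of 72 h DC has 12 and 11 cells.

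The Serpine2-rich cells of 24 h DC had few cell cycle transcripts. Mki67, a proliferation marker, stood at 24.6 CPM in cells without Serpine2 and at 1.64 CPM in cells at 5 or more. The summed level of 26 S phase genes was 2738 against 1332 CPM, and that of 28 G2 and M phase genes 1042 against 211 CPM. Ribosomal protein genes made up 36.4% against 45.7% of the total, and the median number of genes found was 3693 against 3187. Of 26 S phase genes, 25 in 24 h DC had r of -0.1 or less with Serpine2, against 20% of all genes, while in 24 h DC+MDSC it was 0 of 26, against 0.0137%. At 72 h with MDSCs, 6 of 26 did, against 3.91%, and Mki67 stood at 94.96 and 84.7 CPM in cells at 0 and at 5 or more. The number of genes found moved with Serpine2 too. It was above 0 in 60.7%, 50.96% and 30.9% of the 24 h DC cells from the group with fewest genes to that with most, and in 68.6%, 77.9% and 79.5% of the 72 h DC+MDSC cells. In 24 h DC the r of Mki67 with Serpine2 was -0.184. Given the number of genes found it was -0.103, and with the share of ribosomal protein genes added it was -0.0399. Beyond these values, the part of the number of genes in these cell cycle gradients was not tested.

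Effector transcripts went in different directions in the Serpine2-rich cells of 24 h DC. Il2, the gene of the T cell growth factor interleukin 2, stood at 405, 714, 931 and 1557 CPM over the 4 groups of Serpine2 value. Gzmb, which encodes the cytotoxic protease granzyme B, stood at 1481, 1115, 630 and 395 CPM. Across these cells, r with Serpine2 was 0.206 for Il2 and -0.289 for Gzmb. Given the number of genes found and the share of ribosomal protein genes, it was 0.184 and -0.108. Ccr7, a lymph node homing receptor gene, stood at 349 CPM in cells without Serpine2 and 1066 CPM in those at 5 or more, and Lag3, an inhibitory receptor gene, at 60.3 and 126 CPM. Among 24 h DC cells with Gzmb, 40.1% had Serpine2 above 0 (95% interval 37.1 to 43.2%), against 60.9% of cells without Gzmb (56.7 to 64.9%). Among cells with Cdkn1a it was 64.8% (60.3 to 69.1%) against 40.1% without (37.2 to 43.1%), and among cells with Lag3 56.9% against 36.7%. For 9 of 33 partner genes, Cdkn1a, Irf4, Ccl3, Ccl4, Xcl1, Lag3, Cd69, S100a11 and Cd44, the share was higher with the partner in all 3 groups of genes found, and for 4, Gzmb, Il2ra, Eomes and Eif4ebp1, lower in all 3. Il2 was higher in 2 of the 3. Such a count needs only the same sign in all 3 groups, whatever the size of the difference. It was not made over all genes, so the partner counts of this and the other libraries have no background to be set against.

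With MDSCs at 24 h, Gzmb stood at 1905, 2260 and 2417 CPM in the cells with Serpine2 at 0, at 1 and at 2 to 4, and Il2 at 349, 415 and 324 CPM. Serpine2 was above 0 in 20.6% of cells with Gzmb (18.9 to 22.4%) and in 15.4% of those without (10.4 to 21.6%), 2 overlapping intervals. Within the groups of genes found, the share was lower with Gzmb in 2 of 3, at 17.3% against 19.2% in the group with fewest genes and 24.9% against 11.6% in that with most. Cells with Cdkn1a had it in 24.6% against 18.7%. Of 32 partner genes, 10 were higher in all 3 groups of genes found, among them Ifng, the interferon gamma gene (24.4% against 18.5%), and Lgals1, a galectin gene (21.8% against 17.8%), and 1, Nr4a1, was lower in all 3. Some of these differences were small: cells with Cd44 had Serpine2 in 20.6% against 19.7% and cells with Lag3 in 21.1% against 19.2%, with overlapping intervals.

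At 72 h with MDSCs, the Serpine2-rich cells held more of a set of transcripts that were also higher in this library. Cox6b2 stood at 131, 212, 310 and 556 CPM over the 4 groups of Serpine2 value, Dcxr at 73.0, 125, 203 and 399 CPM, and Cd81 at 65.9, 102, 140 and 236 CPM. S100a4, a calcium-binding protein gene of effector and memory T cells, stood at 64.5 and 231 CPM in cells at 0 and at 5 or more, Perp at 12.4 and 73.0 CPM, and Psrc1 at 98.2 and 219 CPM. H2-Eb1, an MHC class II chain gene and a dendritic cell marker, stood at 10.0 and 89.6 CPM, whereas H2-Ab1, another such gene, stood at 14.1 and 19.7 CPM and was lower with MDSCs at 72 h (255 to 16.0 CPM). Cells with at least 3 markers of another type made up 17.1% of the cells without Serpine2 and 42.1% of those at 5 or more. Gzmb hardly differed, at 2505 and 2593 CPM. Serpine2 was above 0 in 77.6% of cells with Cdkn1a against 52.3% without, and in 81.4% of cells with S100a4 against 72.4% without. Of 29 partner genes, 10 were higher in all 3 groups of genes found, among them Cdkn1a, S100a4, Cd74 and Ccl5, and 7 were lower in all 3, among them Mki67, Tnfrsf9, Eomes, Bnip3, Mt1 and Eif4ebp1. Without MDSCs at 72 h, 2 of 27 were higher, Cdkn1a (12.4% against 5.74%) and Il7r (13.1% against 9.44%), and 2 were lower, among them Klf2 (8.40% against 14.5%). In 72 h DC, Cox6b2, Dcxr and Cd81 were also higher in the 11 cells at 5 or more than in cells at 0. They stood at 94.9 against 14.2, 53.4 against 12.1 and 113 against 39.4 CPM, while S100a4 stood at 5.93 against 13.7 CPM. In 24 h DC, Cox6b2, Dcxr and Cd81 stood at 44.7 against 3.85, 18.6 against 2.20 and 42.7 against 16.4 CPM.

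The other serpins measured did not share the crossing. Of the 38 serpins listed 14 were in the table, and 3 reached 10 CPM at 24 h and 4 at 72 h, Serpine2 included. Serpinb9, an intracellular inhibitor of granzyme B, stood at 5.98, 129, 201, 16.1 and 21.9 CPM in the 5 libraries, higher at 24 h and not lower with MDSCs at either time. Serpinb6b, another intracellular serpin, stood at 59.4, 132, 211, 54.4 and 107 CPM, higher with MDSCs at both times. Serpinb6a stood at 48.8 and 45.5 CPM at 72 h without and with MDSCs and below 12 CPM in the other libraries.

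The proteases that protease nexin-1 inhibits were scarcely represented. The genes of thrombin (F2), plasminogen (Plg), urokinase (Plau) and tissue plasminogen activator (Plat) were not among the 25 of 36 listed proteases and receptors in the table, and are not analysed here. Lrp1, the uptake receptor, was listed at or below 0.759 CPM in every library. F2r, the main thrombin receptor gene, stood at 17.5 CPM in 72 h DC and 8.07 CPM in 72 h DC+MDSC, and near 3.6 CPM in both 24 h libraries (3.62 and 3.60). Plaur, the urokinase receptor gene, stood at 17.7 and 20.2 CPM at 24 h without and with MDSCs and at 0.651 and 1.57 CPM at 72 h. Of 8 listed members measured at 24 h, 1 was at least 1.5-fold higher with MDSCs and 0 lower, against 2.14% and 1.14% of all genes. Of 9 at 72 h, 0 were higher and 4 lower, against 8.30% and 14.8%, among them Anxa2 (566 to 145 CPM), Eno1 (853 to 384 CPM) and F2r. Anxa2 encodes a plasminogen receptor and S100a10 its partner chain. S100a10 lay on the same sides as Serpine2, at 201 and 158 CPM at 24 h and 1030 and 1404 CPM at 72 h, with differences under 1.5-fold, and its r with Serpine2 was 0.283 in 24 h DC and 0.224 in 72 h DC+MDSC. The plasminogen receptor gene Plgrkt differed less, at 25.5 and 24.3 CPM at 24 h and 68.3 and 79.2 CPM at 72 h.

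Inhibitors of other proteases were counted in the same way. Of 9 measured at 24 h, 0 were 1.5-fold higher or lower with MDSCs, against 2.14% and 1.14% of all genes. At 72 h, where 8.30% of all genes were higher and 14.8% lower, 1 of 9 was higher, Cstb, a cathepsin inhibitor (130 to 225 CPM), and 1 lower, Slpi, a secreted leukocyte protease inhibitor (16.3 to 0.719 CPM). The cystatin genes Cst3 and Cst7, stood at 147 and 154 CPM and at 104 and 124 CPM at 72 h without and with MDSCs.

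ERK signalling and TGF-beta are known to induce Serpine2 in other cell types, and the lists of their target genes were counted too. Over all genes at 10 CPM or more, 2.14% were at least 1.5-fold higher with MDSCs and 1.14% lower at 24 h, and 8.30% and 14.8% at 72 h. Of 17 ERK and EGR targets at 10 CPM or more, 1 was at least 1.5-fold higher and 2 lower with MDSCs at 24 h, and of 9 at 72 h, 0 and 5. Of 11 genes responsive to TGF-beta, 0 and 0 were so at 24 h, and of 7 at 72 h, 0 and 4. Their median log2 ratios were -0.05 and -0.15 at 24 h and -0.69 and -0.73 at 72 h, beside 0.09 and -0.07 over all genes. Of 22 hypoxia and glycolysis genes 7 were higher and 0 lower with MDSCs at 24 h, and of 25 at 72 h, 0 and 25, the reverse of the sides of Serpine2. Of 27 measured genes of the G2 and M phases, 26 were higher at 24 h, and 3 of 28 were lower at 72 h. Of 26 S phase genes, 3 were higher at 24 h and 1 was lower at 72 h. Among granule proteases, 1 of 9 was higher at 24 h, and 2 of 12 higher and 3 lower at 72 h. Among secreted T cell proteins, a list that holds Serpine2, 4 of 20 were higher and 3 lower at 24 h, and 2 of 9 higher and 4 lower at 72 h. Serpine2 itself is counted among those lower at 24 h and those higher at 72 h.

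Markers of other cell types were set beside Serpine2, since fibroblasts and platelets are known to express it and myeloid cells shared the cultures. Of 6 fibroblast and stroma markers 2 were in the table, and they summed to 0.0411 CPM in 24 h DC and 0.453 CPM in 72 h DC+MDSC, at most 1.13 CPM in any library. Red cell and platelet markers, 3 of 5 in the table, summed to at most 0.895 CPM, and granulocyte, monocyte and macrophage markers, 9 of 17 in the table, to 1.71 to 10.8 CPM. B cell, NK cell and CD4 T cell markers, 3 in the table for each, summed to 4.86, 32.3 and 24.6 CPM in 24 h DC and to 27.6, 6.25 and 38.0 CPM in 72 h DC+MDSC. The CD4 T cell sum was highest in 72 h DC, at 110 CPM. Dendritic cell markers, 11 of 14 in the table, none at 0 in a stimulated library, summed to 133 CPM in 24 h DC, 182 in 24 h DC+MDSC, 456 in 72 h DC and 305 in 72 h DC+MDSC. H2-Ab1 alone gave 255 and 16.0 CPM of the 72 h sums, without and with MDSCs. Of 5 dendritic cell markers at 10 CPM or more at 72 h, 3 were at least 1.5-fold higher with MDSCs and 1 lower. Their median log2 ratio was 0.99, and 8.30% and 14.8% of all genes were higher and lower. The dendritic cell markers summed to 120 CPM in the 24 h DC cells with Serpine2 and 145 CPM in those without, and in 72 h DC+MDSC to 320 and 257 CPM. Cells holding at least 3 markers of one other cell type made up 3.91% of the cells with Serpine2 and 6.46% of those without in 24 h DC, and 32.3% and 17.1% in 72 h DC+MDSC. They made up 48.1% and 28.3% in 72 h DC, and 10.8% and 9.04% in 24 h DC+MDSC. Without such cells the log2 ratio with over without MDSCs was -2.68 at 24 h and 4.04 at 72 h, and the share in 72 h DC+MDSC was 71.4%. The Cd8a level in 24 h DC was 457 CPM in cells without Serpine2 and 272 CPM in those at 5 or more, and in 72 h DC+MDSC 680 and 580 CPM. The part of other cells in the Serpine2 levels was not tested beyond these values.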

How the data were processed

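Per the labels' protocols, FACS-sorted OT-I CD8+ T cells were run on the 10x Genomics platform. The submitters' processing notes name Cell Ranger 2.0.1, Seurat and mm10 without settings. The deposited values are natural log values: each of 3 tables gives ln(1 + n), with n whole for every gene in every cell (0 values deviated by over 1e-06). The total per cell was nearly constant; the sources used here do not give the adjustment. The library of each cell came from the authors' deposited cell annotation, a label with no unit (other).

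The whole numbers were recovered as exp(value) - 1 and summed per library to levels (CPM). Intervals of shares are Clopper-Pearson (95%) and hold counting error alone. No test was run, each group being 1 library. Correlations used genes above 0 in 10% of cells. Doublets were not treated. The code was tested on simulated data. The members and gene lists were chosen with earlier results of these data known. Named genes were the 5 highest and 3 lowest by r per library, those shared between libraries of a time, the 5 with the most similar levels, genes on the same opposite sides, serpin, protease, receptor and inhibitor list members at 20 CPM or more, and partner genes. Others, such as Fam124b, Mrpl44, Ccnb2, Lrp1, F2r, Slpi and single p53 targets, were chosen after their values were seen. Some list and partner genes are not reported here. Alternatives are given below. Positions are from GENCODE M21 and promoter windows from RefSeq (GRCm38.p6). Python 3.11.15, numpy 2.4.6, scipy 1.17.1 and pandas 2.3.3 were used.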

Additional observations from a re-analysis of the deposited data

Results flagged for a closer look

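The Serpine2 log2 ratio with over without MDSCs was -2.68 at 24 h and 3.75 at 72 h, so the same contrast lay on opposite sides at the 2 times. The difference between the times was not tested, as each of the 4 ratios' groups was 1 library, and this contrast is what chose the gene.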

How the results depend on the processing

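The direction of all 5 Serpine2 log2 ratios was the same under every alternative run, from -3.47 to -2.28 for MDSCs at 24 h and 3.42 to 4.27 at 72 h. With values of 2 or more only, an alternative chosen after seeing the data, they were -3.47 for MDSCs at 24 h, 8.55 for 24 h DC over 0 h and 3.87 for 72 h over 24 h with MDSCs. The share of cells at 2 or more was 0.169%, 31.5%, 5.96%, 4.10% and 56.6% in the order 0 h, 24 h DC, 24 h DC+MDSC, 72 h DC and 72 h DC+MDSC, and at 5 or more 0%, 14.98%, 0.534%, 0.571% and 19.2%. In the separate tables the share above 0 was 53.1% in 24 h DC and 15.9% in 72 h DC. Without cells with 3 or more markers of another type the share above 0 was 8.06% in 72 h DC and 71.4% in 72 h DC+MDSC. The count of genes on the opposite sides of Serpine2 was 8 at a minimum of 10 CPM, 0 at 200 CPM and 1 with the mean log value. Without 0 h, 12 of the 20 most similar genes stayed.

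Genes with r of 0.1 or more numbered 680 at 0 h, but 297 as a partial correlation on genes found, 247 with ribosomal protein share added and 449 among cells above 0, with 1 p53 target under each of the last 2. In 24 h DC+MDSC they numbered 0 by Spearman's rho (p53 targets 0) and 153 among cells above 0 (p53 targets 2). In 72 h DC they numbered 44 and 40 as partial correlations and 779 among cells above 0. For single genes, r of Cdkn1a in 24 h DC was 0.370 by Spearman's rho. At a given number of genes and ribosomal share, r there was 0.377 for Cdkn1a, 0.319 for Phlda3 and 0.309 for Ccng1. Among cells above 0, r was 0.349 for Ccng1 in 72 h DC, and 0.129 for Cdkn1a and 0.182 for Phlda3 in 72 h DC+MDSC. The causes were not tested. Of the other results under an alternative, 93 that answer a comparison and 65 for single genes moved less than their limits. No paired analysis was possible because each group was 1 library. Molecule depth is unknown, so low values cannot be separated from missed detection.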
